A study of Aconitum carmichaelii with 4 samples.

Results

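The HMG-CoA reductase (HMGR) unigenes that the study listed from the A. carmichaelii assembly belong to 1 Trinity gene, TR44439|c4_g1, which holds 4 of the 128183 unigenes. That list was filtered by length and similarity, and the assembly was not searched here for other HMGR unigenes. A Trinity gene is a group of assembled sequences that share stretches of sequence and that are numbered as isoforms of each other. Members were chosen by identifier, as all unigenes of this Trinity gene, and no expression value entered the rule, although earlier results of these data were known when the gene was picked. The study annotated 3 of them as hydroxymethylglutaryl-CoA reductase, by their match to proteins of other species, and named them HMGR1 (TR44439|c4_g1_i5, 784 bases), HMGR2 (TR44439|c4_g1_i7, 2118 bases) and HMGR3 (TR44439|c4_g1_i1, 2179 bases). The remaining member, TR44439|c4_g1_i3 (472 bases), carries no name in the sources used here and is called i3. No other Trinity gene carries the cluster number TR44439. A single library each was made from root, bud, flower and leaf tissue of untreated plants, 3 years old, that grew under natural conditions and carry 1 plant material number. Whether the tissues came from the same individuals is not stated. With n = 1 per tissue there is no replicate check, no test between tissues was made, and every interval below is an exact 95% interval of counting error only.

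HMGR is a membrane-bound enzyme of the endoplasmic reticulum that reduces HMG-CoA to mevalonate with NADPH. It follows acetoacetyl-CoA thiolase (AACT) and HMG-CoA synthase (HMGS) in the cytosolic mevalonate (MVA) pathway, and precedes mevalonate kinase (MVK), phosphomevalonate kinase (PMK) and mevalonate diphosphate decarboxylase (MVDD). In plants it is widely regarded as a main control point for sterols, triterpenes and sesquiterpenes, while the plastids make isopentenyl diphosphate by the separate methylerythritol phosphate (MEP) pathway. In Aconitum both routes could feed geranylgeranyl diphosphate, from which the diterpene alkaloids of the root are made. The comparison of tissues asks where HMGR transcripts are abundant in a plant whose root accumulates these alkaloids.

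The root library was the shallowest, with 4811266 assigned fragments, and the flower library the deepest, with 7057551. Of the marker unigenes available, the photosystem II cytochrome b559 subunit (TR1164|c0_g1_i1) had 26 fragments in leaf, 6 in flower, 2 in bud and 0 in root, and photosystem II protein K (TR1224|c0_g1_i1) had its highest FPKM in leaf (6.53) and 4.95 in root. The FUL-like MADS-box unigenes did not mark the inflorescence, since TR39420|c0_g1_i1 stood at an FPKM of 52.5 in leaf, with 18.3 for flower, 14.8 for bud and 0.18 for root, and TR40910|c0_g1_i2 was highest in root, at 20.3. No root marker was at hand, so the root and inflorescence labels could not be checked this way.

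HMGR transcripts were most abundant in root, somewhat less so in bud and flower, and low in leaf. Summed over the 4 unigenes, root held 1321 fragments, bud 1377, flower 1084 and leaf 102. Relative to library size, as fragments per 1000000 library fragments (FPM), root stood at 275 (260.0 to 289.8), bud at 208 (197 to 219), flower at 154 (145 to 163) and leaf at 18.9 (15.4 to 22.9). The intervals of the 4 libraries do not overlap each other. In FPM the gene exceeded its leaf value 14.5-fold in root (11.9 to 18.0), 11.02-fold in bud (9.01 to 13.6) and 8.13-fold in flower (6.63 to 10.1). The steps among the other tissues were small: root to bud was 1.32 (1.22 to 1.42), bud to flower 1.36 (1.25 to 1.47) and root to flower 1.79 (1.65 to 1.94). In whole organs, fewer cells that express the gene and less HMGR RNA per cell cannot be told apart.

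FPKM divides fragments by effective length in kilobases as well as by library size, and its sum over the 4 unigenes came to 206 for root, 163 for bud, 114 for flower and 11.8 for leaf. By this sum the HMGR gene stood behind 798 of the 97828 Trinity genes in root and behind 1170 in bud. It stood behind 1860 in flower and behind 12320 in leaf.

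HMGR1, the shortest named unigene, drew 250 fragments from root, 287 from bud, 185 from flower and 9 from leaf. This gave FPKM values of 84.7 for root (74.5 to 95.8), 70.6 for bud (62.6 to 79.2), 42.6 for flower (36.6 to 49.2) and 2.70 for leaf (1.23 to 5.12). It had the highest FPKM of the HMGR unigenes in every tissue but leaf. Its root to leaf ratio of 31.4 (16.3 to 69.5) rests on the 9 leaf fragments, and for root over bud its 1.20-fold difference only just exceeds counting error (1.01 to 1.43).

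HMGR2 drew 457 fragments from root, 524 from bud, 420 from flower and 29 from leaf. Its FPKM values were 48.8 for root (44.4 to 53.4), 40.7 for bud (37.2 to 44.3), 30.5 for flower (27.7 to 33.6) and 2.75 for leaf (1.84 to 3.95). The intervals of root and bud meet almost end to end without overlapping, and that of flower lies below both. The root to leaf ratio was 17.7 (12.2 to 26.8), and that of flower to leaf 11.1 (7.61 to 16.8).

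HMGR3, the longest, drew 598 fragments from root, 545 from bud, 461 from flower and 63 from leaf, the most of any HMGR unigene in each library. Its FPKM values were 61.9 for root (57.0 to 67.0), 41.0 for bud (37.6 to 44.6), 32.5 for flower (29.6 to 35.6) and 5.79 for leaf (4.45 to 7.41). None of these intervals overlap, and the gap between root and bud is wider than that between bud and flower. HMGR3 had the smallest root to leaf ratio of the members, at 10.7 (8.23 to 14.1), and the smallest bud to leaf ratio, at 7.07 (5.44 to 9.34).

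The shortest member, i3, drew 16 fragments from root, 21 from bud, 18 from flower and 1 from leaf. Its FPKM values were 11.02 for root (6.30 to 17.9), 10.5 for bud (6.48 to 16.0), 8.39 for flower (4.97 to 13.3) and 0.60 for leaf (0.0153 to 3.37). Among root, bud and flower no difference was detectable for i3 at this depth, and its root to leaf ratio of 18.2 has a wide interval (2.83 to 764), since leaf rests on 1 fragment.

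**Figure D1:**
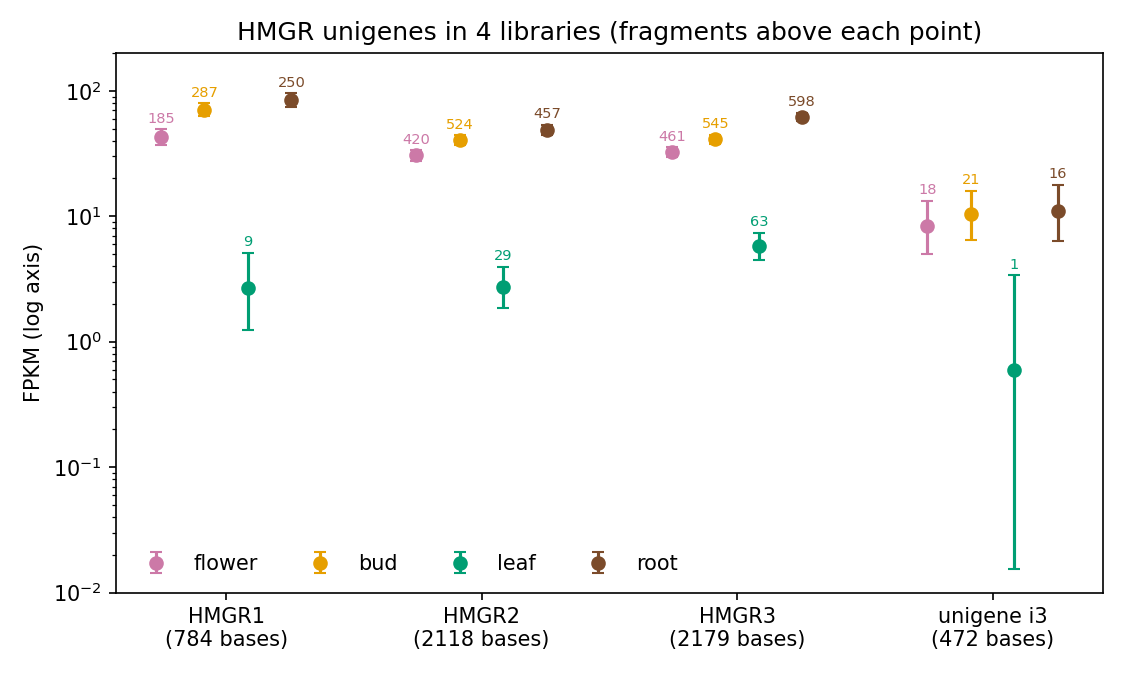
FPKM of the 4 unigenes of the HMGR gene in flower, bud, leaf and root, on a log axis. Points are single libraries, bars are exact 95% Poisson intervals, and the number over each point is its fragment count. Leaf lies below the other libraries for HMGR1, HMGR2 and HMGR3, with 9, 29 and 63 fragments.

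The order root, bud, flower, leaf was shared by all 4 HMGR unigenes. It held for 5.21% of the 46663 unigenes with at least 20 fragments over the 4 libraries, and 15.9% of these were highest in root. Isoforms of 1 Trinity gene share sequence, so the 4 orders are not independent of each other. All 3 named unigenes passed 2-fold in root over leaf with an interval excluding 1, as did 21.2% of the 27039 unigenes with at least 20 fragments in these libraries. They did so in bud against leaf, beside 35.4% of unigenes, and in flower against leaf, beside 30.1%. Of the unigenes compared between root and leaf, 2.64% had a ratio at least as high as that of HMGR1, 3.61% as that of HMGR2 and 4.80% as that of HMGR3. Of the 4 members, i3 did not reach 20 fragments in root and leaf together or in flower and leaf together, and was counted as called in bud against leaf.

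None of the 3 named unigenes reached 2-fold in root against flower (12.1% of unigenes did, and 41.5% passed it in the other direction), in root against bud (11.1%) or in bud against flower (15.3%). HMGR1 came closest, at 1.99-fold in root against flower (1.64 to 2.42), and HMGR3 stood at 1.90 (1.68 to 2.16) in the same pair. The median unigene was lower in root than in bud, with a ratio of 0.556, and lower in root than in flower, with a ratio of 0.630, so the HMGR ratios above 1 lay on the other side of 1 from the median unigene.

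The size of the root values relative to bud and flower depended on how libraries were scaled. Under TMM scaling all root to bud ratios rise by 0.74 on the log2 scale and all root to flower ratios by 0.62. The root to bud ratio became 2.01 (1.69 to 2.39) for HMGR1, 2.01 (1.77 to 2.28) for HMGR2 and 2.53 (2.25 to 2.84) for HMGR3. All 3 then passed 2-fold in root against bud, as did 21% of all unigenes compared (7015 of 33405), and in root against flower, as did 21.1%. Bud against flower moved the other way, and with DESeq2 size factors the ratio of HMGR3 was 1.11 (0.976 to 1.26). Root stayed above bud, and leaf the lowest, under all 4 scalings for the 3 named unigenes.

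**Figure D2:**
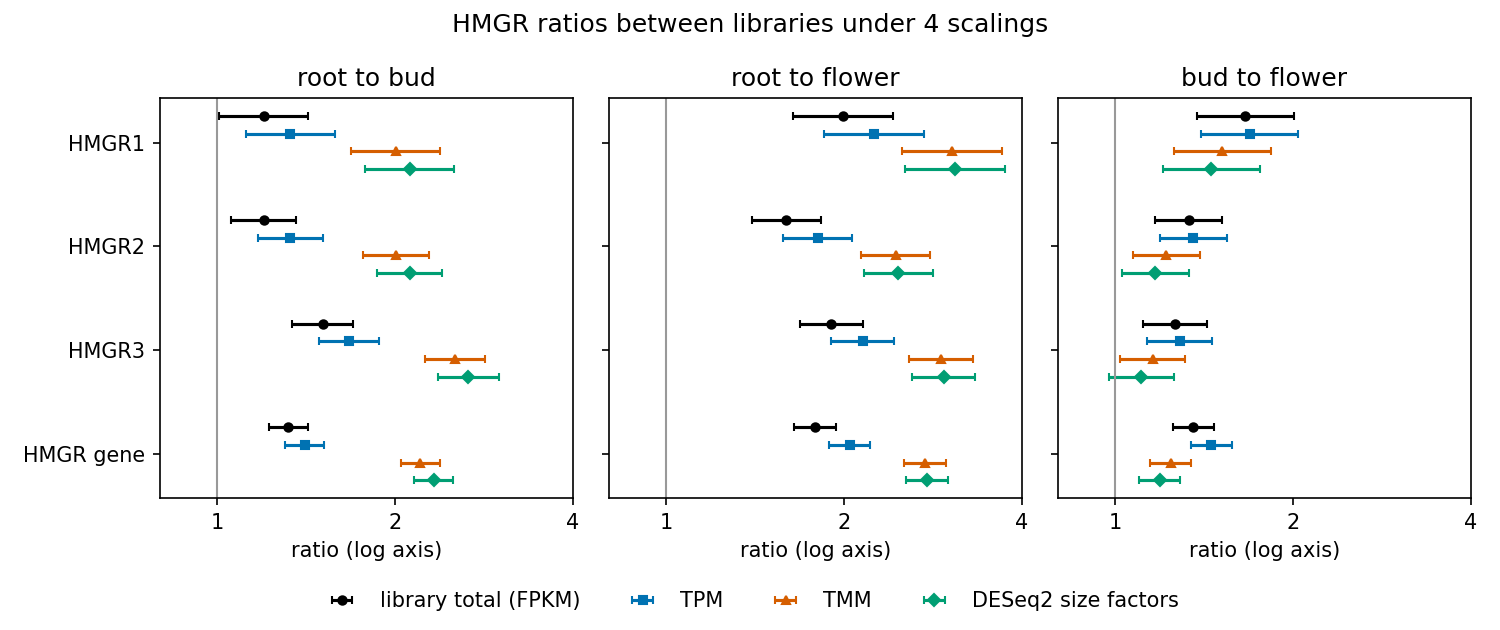
Ratios between libraries for HMGR1, HMGR2, HMGR3 and the summed HMGR gene, on a log axis, under the library total, TPM, TMM and DESeq2 size factors. Points are ratios of single libraries (for the gene under the library total, of summed fragments), and bars are exact 95% intervals of counting error. For HMGR3 the root to bud ratio goes from 1.51 with the library total to 2.53 with TMM.

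The make-up of the HMGR gene was more alike among root, bud and flower than between any of these and leaf. By the deposited isoform percent, the share of a unigene in the summed TPM of its Trinity gene, HMGR1 took 22.8% in leaf and 41.0%, 43.4% and 37.4% in root, bud and flower. HMGR3 took 48.9% in leaf and 30.0%, 25.2% and 28.5% in root, bud and flower. HMGR2 varied little, from 23.2% in leaf to 26.8% in flower, and i3 took 5.11% to 7.36%. By this measure HMGR1 was the main isoform in root, bud and flower and HMGR3 in leaf. The main isoform, taken by FPKM, differed between bud and leaf in 29.5% of the Trinity genes with several unigenes and at least 20 fragments in each library, between root and leaf in 30.2% and between flower and leaf in 28.4%, so a change of main isoform by itself was common in these libraries.

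Counted as fragments, without regard to length, HMGR3 was the largest member in every library. It held 61.8% of the gene's fragments in leaf (51.6 to 71.2), against 45.3% for root (42.6 to 48.0), 42.5% for flower (39.6 to 45.5) and 39.6% for bud (37.0 to 42.2). HMGR1 held 8.82% in leaf (4.11 to 16.1) and 18.9% in root (16.8 to 21.1). HMGR2 held 28.4% in leaf (19.9 to 38.2), against 34.6% in root (32.0 to 37.2), 38.1% in bud (35.5 to 40.7) and 38.7% in flower (35.8 to 41.7), with overlapping intervals. The leaf share of HMGR3 lies above the intervals of the other libraries, while the leaf interval of HMGR1 lies below those of root and bud and overlaps that of flower (14.9 to 19.4).

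HMGR2 and HMGR3 differ by little in length, so their ratio is nearly free of length correction, and a ratio within a library does not depend on library scaling. The HMGR3 to HMGR2 ratio in FPKM came to 2.11 for leaf (1.34 to 3.39), 1.27 for root (1.12 to 1.44), 1.06 for flower (0.930 to 1.22) and 1.01 for bud (0.893 to 1.14). The leaf ratio exceeded that of each other library: the bud ratio was 0.479 of the leaf ratio (0.292 to 0.769), the flower ratio 0.505 (0.308 to 0.814) and the root ratio 0.602 (0.368 to 0.968). The root ratio was also 1.26 times that of bud (1.06 to 1.50), and its difference from flower lay within counting error, at 1.19 (0.992 to 1.43). The FPKM ratio of HMGR1 to HMGR2 came to 1.74 for bud (1.50 to 2.01), 1.74 for root (1.48 to 2.03), 1.39 for flower (1.17 to 1.66) and 0.980 for leaf (0.408 to 2.13), and the leaf interval is too wide to set it apart from the others. For HMGR1 to HMGR3 the leaf ratio of 0.465 (0.203 to 0.941) was lower than in the other libraries. The root ratio was 2.93 times that of leaf (1.42 to 6.79), the bud ratio 3.69 times (1.79 to 8.55) and the flower ratio 2.81 times (1.35 to 6.55), all resting on the 9 leaf fragments of HMGR1.

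The distance between 2 isoform make-ups, the percentage of the summed FPKM that would have to move from one isoform to another, was 23.7% between bud and leaf for the HMGR gene. The median over 2974 Trinity genes with several unigenes and at least 100 fragments in both libraries was 7.09%, and 7.97% of them lay at least as far apart. The HMGR gene had 102 fragments in leaf, close to this minimum, and how much counting error adds to its distances from leaf was not tested. Flower and leaf lay 20.4% apart, with 9.10% of 3056 genes at least as far, and root and leaf 18.9%, with 16.3% of 2117 genes at least as far. Between root and bud it was 4.79%, below the median of 7.88%. The study names RSEM for abundance, but the sources used here do not describe how fragments matching several isoforms were divided. All deposited expected counts are whole numbers, so how such fragments were assigned is not known. These shares and the ratios between isoforms are thus less certain than the counts alone make them.

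**Figure D3:**
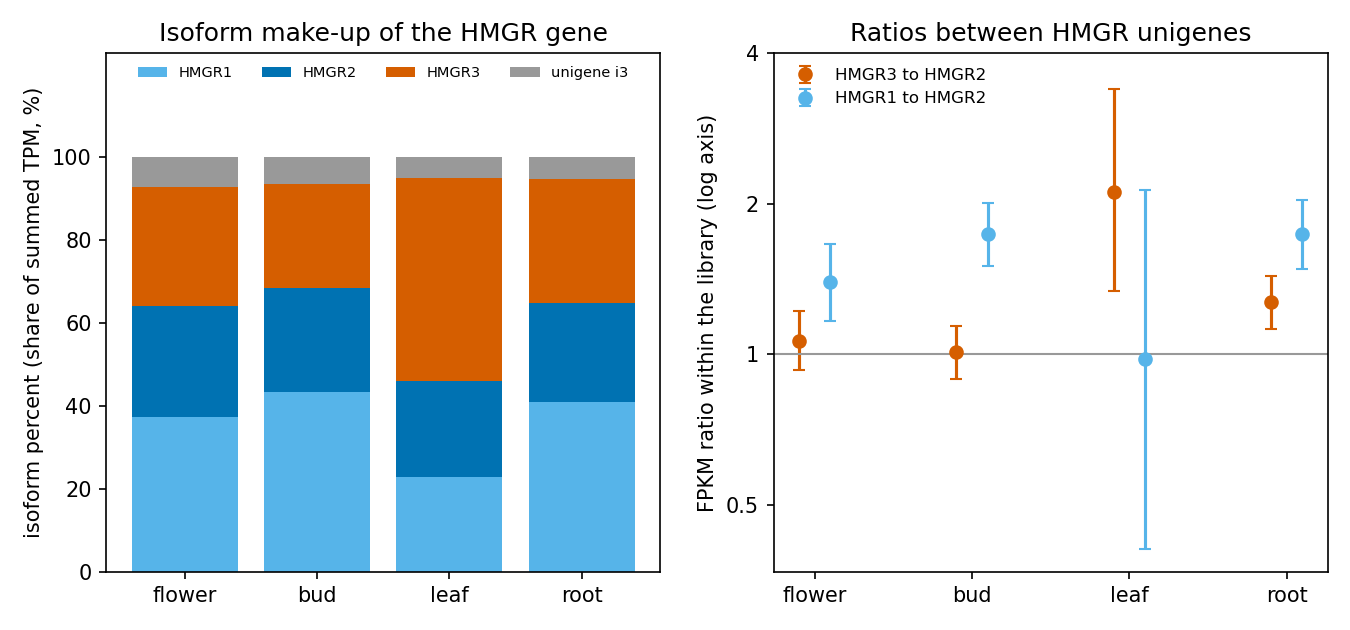
Left, deposited isoform percent of the 4 HMGR unigenes in each library, as stacked bars. Right, FPKM ratios of HMGR3 to HMGR2 and of HMGR1 to HMGR2 within each library on a log axis, with exact 95% intervals of counting error. HMGR3 takes 48.9% in leaf, against 25.2% to 30.0% in the other libraries.

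HMGR had the highest summed FPKM of the MVA enzymes in root, bud and flower and a middle place in leaf. The pathway was taken as the 17 unigenes the study lists, with FPKM summed over the listed unigenes of an enzyme, 3 of them for HMGR. HMGR made up 59.9% of the summed MVA FPKM of root, 38.2% of that of flower, 31.1% of bud and 10.8% of leaf. In root, HMGR stood at 195 FPKM, followed by AACT (83.6), PMK (24.8), MVK (9.10), HMGS (8.98) and MVDD (4.49). In leaf, HMGR stood at 11.2, below AACT (29.7), HMGS (25.1) and PMK (22.7), and above MVK (10.3) by less than counting error, with a ratio of 1.09 (0.792 to 1.52).

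HMGS makes the HMG-CoA that HMGR reduces. HMGR exceeded HMGS in FPKM 21.7-fold in root (17.2 to 27.9), 2.14-fold in flower (1.93 to 2.39) and 1.10-fold in bud (1.02 to 1.19), and stood at 0.447 of it in leaf (0.350 to 0.569). Root was thus 19.7 times bud (15.4 to 25.6), 10.1 times flower (7.80 to 13.3) and 48.6 times leaf (34.4 to 68.9) in this ratio, whatever the scaling of the libraries. All 4 HMGS unigenes were lowest in root, with 61 fragments for HMGS4, 9 for HMGS3, 3 for HMGS2 and 0 for HMGS1. How many of all unigenes were lowest in root was not computed. The median unigene was also lower in root than in bud, with a ratio of 0.556. With the highest single unigene of each enzyme in place of the sums, the root ratio was 12.2, and with unigenes of at least 1000 bases it was 13.6, still above every other library. In bud the latter choice put HMGS ahead, with a ratio of 0.934.

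By FPKM, AACT, the first enzyme of the pathway, held the only other MVA unigenes that were highest in root. This depended on the scaling for PMK1 and PMK3, with root to bud ratios of 0.892 and 0.767, since TMM raises all such ratios 1.67-fold. The FPKM ratio of HMGR to AACT came to 2.34 for root (2.07 to 2.64), 1.52 for flower (1.35 to 1.71), 1.28 for bud (1.17 to 1.41) and 0.379 for leaf (0.290 to 0.494). A minimum length of 1000 bases left AACT4 as the only AACT unigene. Root then still had the highest ratio, at 2.71, ahead of flower (2.38), bud (2.32) and leaf (0.579). AACT3 (TR44607|c2_g6_i4) and AACT4 (TR44607|c2_g6_i2) were the only other MVA unigenes with the order root, bud, flower, leaf. AACT3 had FPKM values of 41.0 for root, 32.2 for bud, 27.7 for flower and 13.5 for leaf, and AACT4 had 40.8, 35.2, 26.5 and 14.8 in the same order. AACT1 (TR41842|c0_g3_i5), from another Trinity gene, was highest in bud, at 47.2, and had 1.33 in root.

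None of the enzymes after HMGR had its highest summed FPKM in root, with libraries scaled by their totals. For PMK this depended on the scaling. PMK stood at 24.8 in root and 35.9 in bud, and TMM raises all root to bud ratios 1.67-fold. The HMGR to MVK ratio was 21.5 in root (16.2 to 29.0), 5.67 in bud (4.90 to 6.60) and 4.53 in flower (3.88 to 5.31). With the highest single unigene of each enzyme it stood at 9.30 for root, 2.63 for bud, 1.83 for flower and 0.563 for leaf, since MVK has 1 listed unigene and HMGR 3. With unigenes of at least 1000 bases it was 12.2 in root, 3.04 in bud and 2.70 in flower. For MVDD, the last enzyme, the ratio stood at 43.5 in root (31.1 to 62.7), against 11.2 in flower (9.18 to 13.8), 8.53 in bud (7.33 to 9.98) and 2.10 in leaf (1.47 to 3.03). Unigenes of at least 1000 bases gave 24.6 in root, 6.68 in flower and 4.58 in bud. For PMK it came to 7.88 for root (6.73 to 9.29), 5.43 for flower (4.71 to 6.28), 4.23 for bud (3.75 to 4.80) and 0.494 for leaf (0.383 to 0.636). The flower value was 2.80 with the highest single unigene of each enzyme and 3.02 with all unigenes of the Trinity genes, and the leaf value 0.321 with the latter. For each of the 5 other enzymes the ratio of summed FPKM was highest in root and lowest in leaf.

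**Figure D4:**
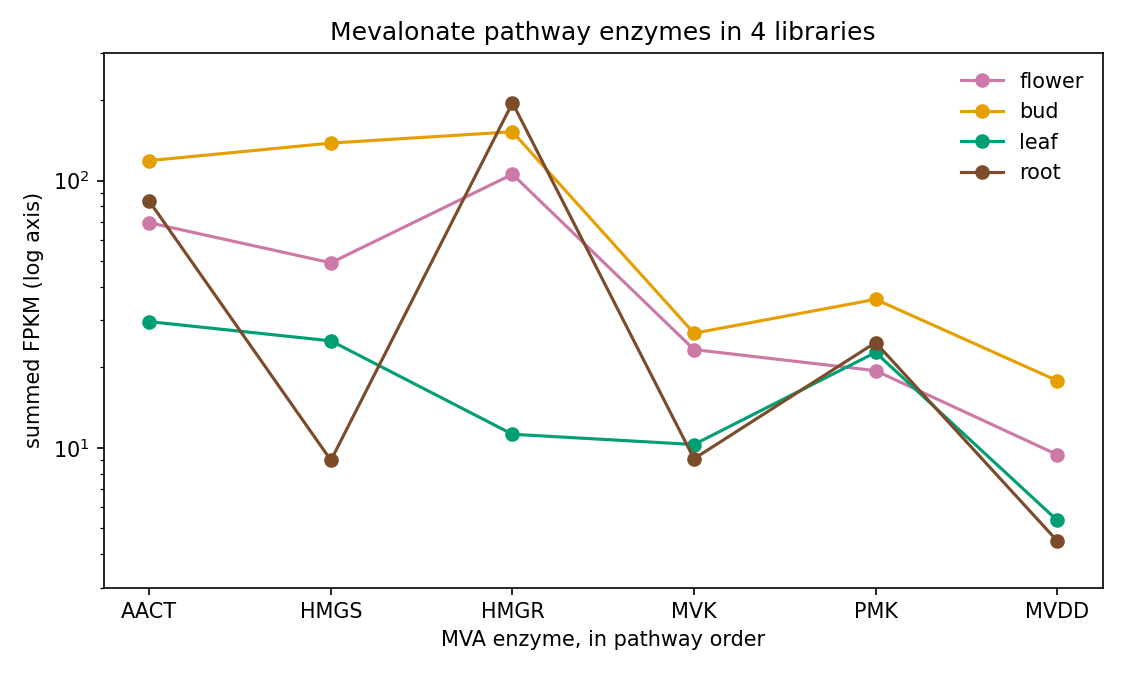
Summed FPKM of the listed unigenes of each MVA enzyme, in pathway order, in flower, bud, leaf and root, on a log axis. Each point is 1 library and lines join the enzymes of a library. In root HMGR stands at 195 between HMGS at 8.98 and MVK at 9.10, while in leaf it stands at 11.2.

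Of the 14 other MVA unigenes, 11 had their highest FPKM in bud, 2 in root and 1 in flower, and 8 were lowest in root. Of all unigenes with at least 20 fragments over the 4 libraries, 15.9% were highest in root. The shares highest in bud or lowest in root were not computed over all unigenes, so these counts are not read as particular to the pathway. The counts and the calls below hold for scaling by library totals. TMM raises all root to bud ratios 1.67-fold and all root to leaf ratios 1.13-fold. Between root and leaf, 9 of the 14 had at least 20 fragments, of which 2 were called higher in root and 2 lower (21.2% and 30.2% of all unigenes were), with a median ratio of 0.972 beside 0.901 over all unigenes compared. The 3 HMGR unigenes had a median of 17.7 in the same pair. Between root and bud, 13 of the 14 were compared, with none called higher and 9 lower (11.1% and 46.0% of all unigenes were), and a median ratio of 0.256 beside 0.556. The HMGR unigenes had a median of 1.20 there.

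HMGR exceeded DXS (deoxyxylulose phosphate synthase), the first enzyme of the plastid MEP pathway, in root and bud. This comparison was added after the values had been seen. The 11 DXS unigenes summed to an FPKM of 317 in flower and of 85.6 to 97.0 in the other libraries. The FPKM ratio of HMGR to DXS came to 2.18 for root (1.98 to 2.41), 1.78 for bud (1.64 to 1.93), 0.333 for flower (0.312 to 0.356) and 0.116 for leaf (0.0935 to 0.142). With the highest single unigene of each enzyme it was 3.66 in root and 0.178 in flower, and with unigenes of at least 1000 bases 1.10 in bud and 0.206 in flower. Most of the flower sum came from DXS10 (TR43248|c0_g1_i2), at 239.6. Of the 21 MEP unigenes, 15 were compared between root and leaf, with 3 called higher in root (21.2% of all unigenes were) and 7 lower (30.2% were), and a median ratio of 0.612 beside 0.901.

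The tissue pattern of the HMGR gene was compared with that of other unigenes through the share of each library in the FPKM summed over the 4 libraries. For HMGR the shares were 41.7% for root, 32.9% for bud, 23.0% for flower and 2.39% for leaf. The distance between 2 patterns is the percentage that would have to move between libraries to make them equal, and its median over 46659 unigenes with at least 20 fragments was 33.1%. HMGR2 lay 2.10% from the gene, HMGR1 2.85%, HMGR3 3.85% and i3 5.98%, which follows in part from their being its members. Within 10% lay 634 other unigenes, or 1.36%. AACT4 was at 10.2% and AACT3 at 10.6%, the closest of the other MVA unigenes.

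Among the 56 listed MEP, post-IPP and cytochrome P450 unigenes, the closest was the P450 unigene TR43949|c0_g1_i3 (15.3%), followed by GGPPS1 (16.4%), the P450 unigenes TR45846|c2_g1_i3 (19.0%) and TR46389|c0_g3_i3 (20.5%, from 14 fragments), and DXS11 (23.7%). Of the 46659 unigenes compared, 5.78% were at least as close as the first of these and 7.22% as GGPPS1. For the next 2 P450 unigenes these shares were 11.7% and 14.8%, and for DXS11 22.0%. The study chose the P450 list by correlation with CDPS4 and KS2 and by high expression in root, both in these libraries, so its closeness is no independent evidence. GGPPS1, a geranylgeranyl diphosphate synthase that makes the precursor of diterpenes, had 32.5% of its FPKM in root and 16.6% in leaf. The ranking over 4 libraries is a description, and it changed with the measure: a correlation of log2(FPKM + 1) kept 3 of the 5 and log2(FPKM + 0.1) kept 2.

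HMGR was less concentrated in root than some unigenes of the enzymes that open the diterpene branch. CDPS4, an ent-copalyl diphosphate synthase, had 85.9% of its FPKM in root, and the kaurene synthases KS1 and KS2 had 94.0% and 92.8%, against 41.7% for HMGR. Other listed unigenes of these enzymes had little of their FPKM in root, with 1.003% for KS3, 7.16% for CDPS3 and 0 for CDPS1 and CDPS2. The study also reports unigenes outside this list that were annotated as CDPS and found in root only. CDPS4, KS1 and KS2 had few fragments outside root, with 6 in bud for CDPS4, 7 for KS1 and 20 for KS2, while HMGR had 1377 in bud. The distances of these 3 from the HMGR pattern were 45.3% for CDPS4, 52.3% for KS1 and 51.1% for KS2.

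**Figure D5:**
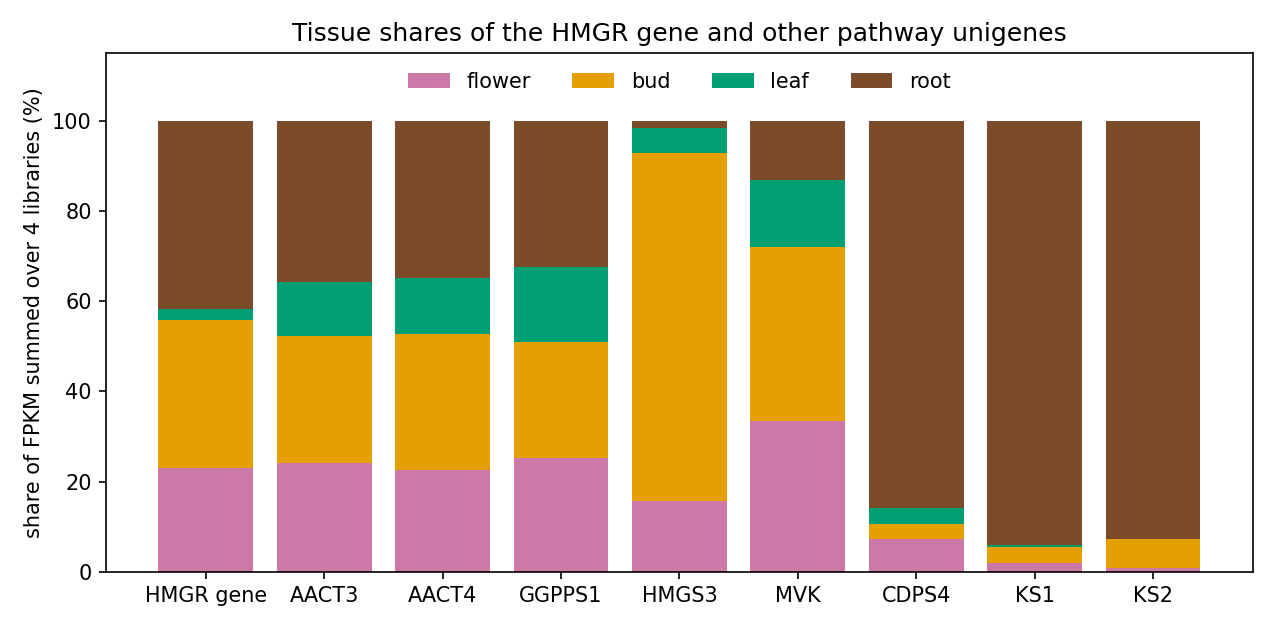
Share of flower, bud, leaf and root in the FPKM summed over the 4 libraries, for the HMGR gene and 8 other pathway unigenes. Each bar sums to 100%. Root takes 41.7% for HMGR, 35.8% for AACT3, 1.53% for HMGS3 and 94.0% for KS1.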

How the data were processed

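From total RNA of each tissue, mRNA was isolated and 1 library was made with a strand-specific kit and sequenced from both ends. The authors used Trimmomatic for trimming, a Trinity assembly reduced by CD-HIT-EST, Bowtie 2 for alignment and RSEM for abundance. The expected count, TPM and FPKM of each unigene were used as the authors deposited them, with the deposited isoform percent. All expected counts are whole numbers, and the deposited joint FPKM table holds the same values.

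Ratios were formed from counts, effective length and library total, with exact 95% conditional binomial intervals. Levels have exact Poisson intervals and shares of fragments Clopper-Pearson intervals. Intervals of ratios between enzymes use their summed fragments. All cover counting error only. They treat fragments as independent molecules, which PCR copies are not, so they may be too narrow. A call needed 2-fold, an interval excluding 1 and at least 20 fragments in the pair. TMM (edgeR 4.0.16, unigenes with at least 20 fragments) and DESeq2 1.42.0 size factors were alternatives, used for scaling only and without a test, in R 4.3.3. Python 3.11.15 with scipy 1.17.1 did the rest. The call and interval of the root to flower ratio and the TMM factors were tested on simulated Poisson counts, without effective lengths. Isoform shares, distances and ratios between enzymes were not part of that simulation. Members, lists and named unigenes (all members, the other MVA unigenes, the 5 closest in pattern, GGPPS1, CDPS4, KS1 and KS2) were chosen with earlier results of these data known. Sequences were not used here.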

Additional observations from a re-analysis of the deposited data

How the results depend on the processing

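No paired analysis was possible because each tissue has 1 library, and no library could be left out for the same reason. Under TMM the gene ratio was 7.43 for bud to leaf, 5.98 for flower to leaf, 2.74 for root to flower, 2.21 for root to bud and 1.24 for bud to flower. With DESeq2 size factors these were 7.21, 6.06, 2.77, 2.33 and 1.19. Summed TPM gave 2.04 for root to flower, and summed FPKM 13.7 for bud to leaf; the cause of these shifts was not tested. The other 18 of 30 alternatives for the gene, all 6 without HMGR1 among them, stayed within the counting interval, and none changed direction. Of 96 alternatives for single HMGR unigenes, 22 left the interval and no called ratio changed direction.

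Shares of fragments, which do not correct for length, were 17.1% for HMGR1, 38.7% for HMGR2 and 42.5% for HMGR3 in flower, 20.8%, 38.1% and 39.6% in bud, and 18.9%, 34.6% and 45.3% in root. In leaf they were 8.82% for HMGR1, 28.4% for HMGR2 and 61.8% for HMGR3.

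With the highest single unigene of each enzyme, the HMGR to HMGS ratio was 1.74 in flower and 12.2 in root. With unigenes of at least 1000 bases it was 1.72 in flower, 13.6 in root and 0.934 in bud, where it reversed as HMGR1, HMGS1 and HMGS2 drop out by length. Both choices left 1 MVA enzyme below HMGR in leaf, where the sums left 2. All unigenes of the Trinity genes, an alternative added after the values had been seen, moved 6 of 24 ratios between enzymes and changed no direction.

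At least 4-fold, unigenes higher in root than leaf fell from 5742 to 2802, in bud than leaf from 12519 to 6552, in flower than leaf from 10118 to 5138, in root than flower from 3859 to 1756, in root than bud from 3702 to 1829 and in bud than flower from 5907 to 2104, while the 3 HMGR unigenes were still called against leaf. Under TMM the numbers were 7784 in bud than leaf, 6727 in root than flower and 7015 in root than bud, and the HMGR unigenes called were 3 in root than flower and 3 in root than bud, from 0 in each. Of the 5 unigenes closest in pattern, 2 were kept by correlation with a pseudocount of 0.1 and 3 with 1. Depth limits HMGR1 and i3 in leaf, which rest on 9 fragments and 1.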
